A study of Homo sapiens with 4 samples.

Results

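The early estrogen response of T-47D, a human breast ductal carcinoma cell line, was described here from 2732 single cells, of which 1207 carried the tag of the 2 h time point and 1525 the tag of the 0 h time point. They were chosen by the deposited time point call alone and made up part of the 4626 T-47D cells, and of the 13703 cells in both lines, that were called to 1 time point. The study used droplet single-cell RNA sequencing on T-47D and on Ishikawa, a human endometrial adenocarcinoma line, after 0, 2, 4 and 8 h in 10 nM 17β-estradiol (E2), the 0 h cells having received the vehicle, DMSO. All cultures had been kept in hormone-depleted medium beforehand, cells of each time point were labelled with a lipid-anchored DNA tag (MULTI-seq), and the 4 time points of a line were mixed before droplet capture. Each time point was 1 culture, so E2 and any other difference between the 2 h and the 0 h culture cannot be told apart. No p-value was computed.

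Estrogen receptor alpha, encoded by ESR1, is a nuclear receptor that E2 turns into a DNA-bound transcription factor. It recognizes the estrogen response element, an inverted repeat of a short half-site with a spacer of 3 bases, and it also reaches DNA through other factors. Luminal breast cancer cells such as T-47D depend on it for growth, and FOXA1 and GATA3 are known to help open its binding sites in these cells.

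Transcripts were counted as unique molecular identifiers (UMIs), the cells of each time point were summed, and levels were expressed as UMIs per 1000000 in the pool (CPM). The 0 h pool held 33175309 UMIs and the 2 h pool 26525924. The pools were alike in depth per cell, with medians of 20677 and 20840 UMIs and of 4345 and 4382 genes, and in mitochondrial UMIs, with medians of 10.4% and 10.0%. All 10 luminal epithelial markers passed a mean of 10 CPM over the 4 T-47D pools, and none of the basal, fibroblast, endothelial or immune markers did. The summed level of each of those 4 lists was at most 17.1 CPM in both pools, and KRT5, KRT14, CDH5, KDR and LYZ had no UMI in either. Other members were detected. The fibroblast marker LUM was at 10.7 CPM at 0 h and 8.14 CPM at 2 h, in 13.6% and 11.8% of cells. COL1A1 had a UMI in 11.1% and 13.1% of cells, and the basal marker ACTA2 in 10.0% and 9.61%. EPCAM, which marks epithelial cells, stood at 239 CPM at 0 h and 234 CPM at 2 h. The T-47D matrix shared 80 barcode sequences with the Ishikawa matrix, 9 of them among the cells compared here. All intervals below are 95% intervals that cover counting error only: exact Poisson intervals for levels, exact conditional intervals for ratios of levels, and Clopper-Pearson intervals for shares of cells.

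Few genes differed by much after 2 h, and most of those that did were higher. Of 7440 genes with a mean of 10 CPM or more over the 4 time points, 91 (1.22%) were at least 1.5-fold higher at 2 h and 31 (0.417%) were at least 1.5-fold lower, on a scale of log2(CPM + 1). Within 1.2-fold stood 92.1% of the genes, and the median log2 fold change was 0.01. The 91 higher genes held 3364 CPM at 0 h and 6745 CPM at 2 h together, and the 31 lower genes held 2772 CPM at 0 h and 1683 CPM at 2 h. Counting intervals of the ratio lay above 1 for all 91 higher genes and below 1 for all 31 lower genes, above 1.5 for 64 of the 91, and wholly past a 1.5-fold decrease for 14 of the 31. The genes were chosen by these same UMIs, so the intervals give counting error and are not separate evidence. The rule could pass genes through the level they reached with E2, and 30 of the 91 were under 10 CPM at 0 h. With 10 CPM required in both pools, 61 genes were higher and 25 were lower.

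**Figure D1:**
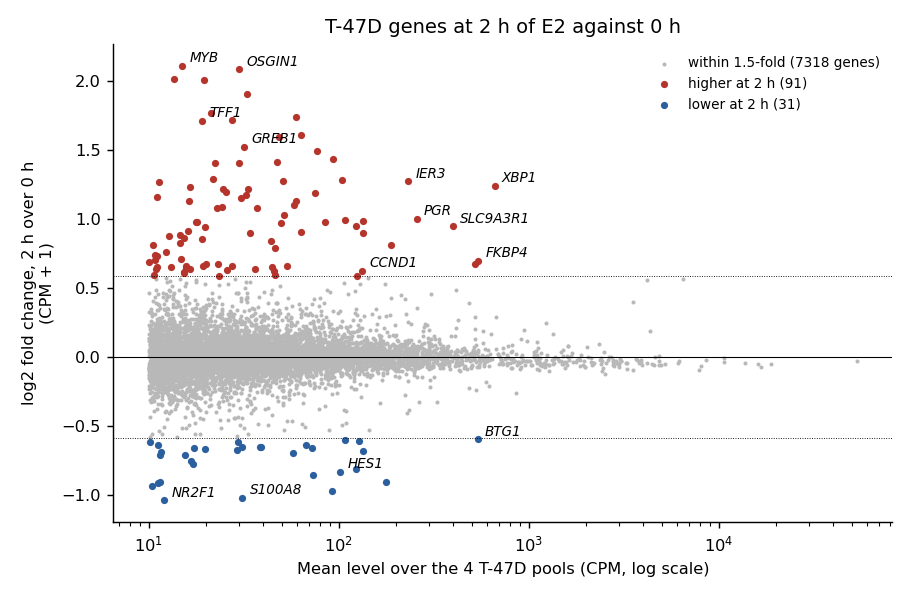
Each point is 1 of 7440 genes, by its mean level over the 4 T-47D pools (x axis, CPM, log scale) and its log2 fold change between 2 h and 0 h (y axis, on CPM + 1), with dotted lines at 1.5-fold. The 91 higher genes (red) reach from 0.59 to 2.11 and the 31 lower genes (blue) only down to -1.04.

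The receptor itself was nearly level. ESR1 was at 25.8 CPM (95% interval 24.1 to 27.6) at 0 h and 29.1 CPM (27.1 to 31.3) at 2 h, a ratio of 1.13 (1.02 to 1.24). The share of cells with an ESR1 UMI was 38.2% and 38.8%. It was 29.1% and 29.7% once each cell was thinned, that is, drawn down at random to 14177 UMIs. Of 15 genes for the receptor, its pioneer factors and its coregulators, 14 passed the minimum level and none passed the 1.5-fold rule, with a median log2 fold change of -0.03. The furthest of them were the transcription factors TFAP2A, at 110.1 CPM at 0 h and 76.2 CPM at 2 h (ratio 0.692, 0.655 to 0.730), and FOXA1, at 119.1 CPM and 84.4 CPM (ratio 0.708, 0.672 to 0.746). GATA3 was at 518 CPM and 444 CPM, and the coactivator NCOA3 at 49.1 CPM and 42.1 CPM.

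Genes on lists of known estrogen targets accounted for 33 of the 91 higher genes and for none of the 31 lower ones. The lists of such targets held 75 genes, of which 51 passed the minimum level, and the median log2 fold change of these was 0.94 against 0.01 over all genes tested. Since 7 of the 33 passed the minimum only through pools with E2, the count was repeated with at least 10 CPM in both pools: 26 of 43 were then higher, against 0.847% of the 7202 genes that met this condition, and their median log2 fold change was 0.81. The lists were drawn up with earlier results of these data known, so the counts describe the response and are not independent evidence of its direction.

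Of the transcriptional regulators on these lists, 12 of 13 measured members were higher, against 1.22% of all genes tested. Of these 12, 1 was under 10 CPM at 0 h and passed the minimum only through pools with E2. MYB, a proto-oncogene that encodes a transcription factor, had the highest log2 fold change of the 7440 genes on the scale of CPM + 1, at 4.49 CPM (3.80 to 5.27) at 0 h and 22.7 CPM (20.9 to 24.6) at 2 h. Its relative MYBL1 went from 17.6 CPM to 48.6 CPM. GREB1, a coactivator found at the receptor in breast cancer cells, was at 10.4 CPM (9.33 to 11.6) and 31.7 CPM (29.6 to 34.0), a ratio of 3.05 (2.69 to 3.47). These intervals were far apart, and MYB and GREB1 stood among the low expressed genes of the cells at 0 h.

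Regulators that were already well expressed were higher too. XBP1, which drives the secretory pathway and the unfolded protein response, stood at 356 CPM (350 to 362) at 0 h and 843 CPM (832 to 854) at 2 h, a ratio of 2.37 (2.31 to 2.42). PGR, the progesterone receptor and the classical clinical sign of an active estrogen receptor, was at 129.5 CPM (126 to 133) and 261 CPM (255 to 267), a ratio of 2.01 (1.94 to 2.09). RARA, a retinoic acid receptor, was at 15.2 CPM and 41.9 CPM, and SIAH2, a ubiquitin ligase, at 26.1 CPM and 64.6 CPM. NRIP1, a corepressor that binds the receptor and damps it, was at 23.2 CPM and 44.3 CPM. The one regulator within 1.5-fold was ELF3, at 60.0 CPM and 61.5 CPM. MYC did not reach the minimum and had 72 UMIs at 0 h and 217 at 2 h, and HEY2 had 41 and 158.

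The bases just before the transcription start of 3 of these regulators are shown because they hold the half-site letters of an estrogen response element, as those of MYB, SIAH2 and NRIP1 do not. They are the 250 bases 5′ of the RefSeq start in GRCh38.p14, in the direction of transcription, with the half-site, GGTCA or TGACC, in capitals. RARA is at chr17:40308930-40309179 on the plus strand, PGR at chr11:101129078-101129327 on the minus strand and XBP1 at chr22:28800570-28800819 on the minus strand.
RARA: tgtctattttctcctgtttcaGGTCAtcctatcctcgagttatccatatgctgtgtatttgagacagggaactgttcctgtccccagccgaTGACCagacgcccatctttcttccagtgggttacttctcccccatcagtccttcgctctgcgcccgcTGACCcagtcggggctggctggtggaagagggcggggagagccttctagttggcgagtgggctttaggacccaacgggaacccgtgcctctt
PGR: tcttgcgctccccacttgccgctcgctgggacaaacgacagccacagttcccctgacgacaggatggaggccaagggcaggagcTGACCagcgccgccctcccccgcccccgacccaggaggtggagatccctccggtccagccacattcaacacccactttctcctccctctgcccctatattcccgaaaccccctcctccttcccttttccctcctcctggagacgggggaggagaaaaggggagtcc
XBP1: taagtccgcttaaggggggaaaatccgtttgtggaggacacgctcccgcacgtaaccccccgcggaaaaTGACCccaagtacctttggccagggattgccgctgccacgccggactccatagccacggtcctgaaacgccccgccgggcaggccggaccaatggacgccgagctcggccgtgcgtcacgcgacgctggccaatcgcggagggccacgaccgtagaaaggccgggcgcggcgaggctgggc

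RARA held 3 such half-sites in this stretch and PGR and XBP1 held 1 each. Over windows of 250 bases before to 50 bases after the start, a half-site on either strand was present in 24 of the 67 higher genes that had a RefSeq promoter (35.8%), in 3 of 23 lower genes (13.04%) and in 34.4% of the 5974 promoters of all genes tested. The share among the higher genes was thus near that of all genes. The full element, 2 half-sites as an inverted repeat with 3 bases between (GGTCA, then any 3 bases, then TGACC, which reads alike on both strands), was in none of the higher or lower genes' windows and in 1 of all 5974. A match gives the letters only, and enhancers were outside these windows.

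Of the secreted estrogen targets, 6 of 10 measured members were past 1.5-fold higher, against 1.22% of all genes tested. Of these 6, 2 were under 10 CPM at 0 h and passed the minimum only through pools with E2. CXCL12, a chemokine, had 6.09 CPM (5.28 to 6.99) at 0 h and 25.6 CPM (23.7 to 27.6) at 2 h. TFF1, a trefoil peptide and one of the first estrogen-induced transcripts known, had 4.88 CPM (4.16 to 5.70) and 18.3 CPM (16.7 to 19.99). AREG, a ligand of the EGF receptor, had 23.4 CPM and 73.6 CPM, and STC2, a secreted glycoprotein, had 27.3 CPM and 78.5 CPM. OLFM1 (12.1 CPM and 38.4 CPM) and the IGF-binding protein IGFBP4 (27.0 CPM and 59.1 CPM) completed these 6. The other 4 were the abundant ones: AGR2 stood at 1494 CPM and 1584 CPM, TFF3 at 560 CPM and 631 CPM, CLIC3 at 1076 CPM and 1105 CPM, and the lysosomal protease gene CTSD at 147 CPM and 197 CPM, a ratio of 1.34 (1.29 to 1.39).

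Among membrane and transport genes, 5 of 9 measured members were higher, against 1.22% of all genes tested. SLC9A3R1, a scaffold under the plasma membrane, was at 211 CPM (206 to 216) and 407 CPM (399 to 415), and SLC7A5, a large neutral amino acid transporter, was at 76.0 CPM and 148 CPM. SLC22A5, a carnitine transporter, was at 6.78 CPM and 12.6 CPM, under the minimum level at 0 h, and did not pass with a pseudocount of 5 CPM, at 0.58. The trophoblast glycoprotein gene TPBG passed by little (ratio 1.51, 1.43 to 1.59), while the carbonic anhydrase CA12 (ratio 1.40, 1.33 to 1.47) and the cytokine receptor subunit IL6ST (ratio 1.41, 1.32 to 1.505) did not pass. The zinc transporter SLC39A6 was at 53.0 CPM and 52.1 CPM. SUSD3, a small membrane protein gene, had 85 UMIs at 0 h and 184 UMIs at 2 h and passed the minimum level only through the 4 and 8 h pools.

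The remaining estrogen targets had 10 of 19 measured members higher, against 1.22% of all genes tested. Of these 10, 2 were under 10 CPM at 0 h. UGCG, which makes glucosylceramide, was at 44.8 CPM and 123 CPM, and PTGES, a prostaglandin E synthase, at 9.59 CPM and 23.6 CPM. TOB1, an antiproliferative gene, stood at 127.5 CPM and 225 CPM. FKBP4, a cochaperone of steroid receptors, stood at 311 CPM (305 to 317) and 504 CPM (496 to 513), a ratio of 1.62 (1.58 to 1.66). CCND1, cyclin D1, which carries cells out of G1, was at 102.3 CPM (98.9 to 106) and 158 CPM (154 to 163), and it was the only G1/S regulator of the 14 measured to pass the rule. The lowest of this group was RHOBTB3, at 81.5 CPM and 74.3 CPM.

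Of the 91 higher genes, 58 were in none of the estrogen lists. OSGIN1, an oxidative stress response gene, was second on the log2(CPM + 1) scale, at 13.4 CPM (12.2 to 14.8) at 0 h and 60.2 CPM (57.3 to 63.3) at 2 h. RUNX1, a transcription factor of blood and breast epithelium, was at 6.90 CPM and 30.8 CPM, KCTD6 at 4.82 CPM and 22.5 CPM, and RNF223 at 9.43 CPM and 34.5 CPM. FMN1, an actin-nucleating formin, was at 16.6 CPM and 57.8 CPM, AMZ1, a metalloprotease gene, at 8.83 CPM and 31.4 CPM, and THBS1, an extracellular matrix glycoprotein, at 8.47 CPM and 24.1 CPM. CBFA2T3, a transcriptional corepressor, was at 11.9 CPM and 30.6 CPM, and B4GALT1, a galactosyltransferase, at 48.7 CPM and 119.7 CPM. DSCAM-AS1, a long noncoding RNA of luminal breast cancer, was among the most abundant higher transcripts, at 325 CPM and 519 CPM.

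Genes lower at 2 h differed by less than the higher genes did, down to a log2 fold change of -1.04. NR2F1, an orphan nuclear receptor, was lowest, at 18.6 CPM (17.2 to 20.1) at 0 h and 8.56 CPM (7.48 to 9.75) at 2 h. ARID5B, a DNA-binding protein gene, was at 123 CPM (119.5 to 127) and 62.5 CPM (59.5 to 65.5), TWIST1, a factor of epithelial-mesenchymal transition, at 15.5 CPM and 7.80 CPM, and MSX2, a homeobox gene, at 76.3 CPM and 46.8 CPM. CITED2, a CBP/p300 binding protein, was at 184 CPM and 115 CPM. BTG1, an antiproliferative gene like TOB1, was the most abundant, at 689.8 CPM and 457 CPM (ratio 0.662, 0.647 to 0.677).

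The TGF-beta and BMP list had 4 of its 9 measured members lower and none higher, with a median log2 fold change of -0.41, where 0.417% of all genes tested were lower. With a pseudocount of 5 CPM, ID1 and ID2 no longer passed, at -0.57 each. BAMBI, a decoy receptor of the pathway, was at 186 CPM (181 to 191) and 106 CPM (102 to 109.6), a ratio of 0.568 (0.543 to 0.594). The ligand BMP4 was at 24.6 CPM and 14.2 CPM. The inhibitors of DNA binding ID1, at 133 CPM and 87.4 CPM, and ID2, at 21.3 CPM and 12.7 CPM, passed the rule, and ID3, at 279.6 CPM and 211 CPM, did not. In the Notch and Wnt list 2 of 6 were lower, beside the same 0.417%: HES1, a Notch target and repressor, at 153 CPM (149 to 157) and 85.9 CPM (82.4 to 89.5), and RNF43, a ubiquitin ligase that removes Wnt receptors, at 14.6 CPM and 7.20 CPM. RNF43 was within the limit, at -0.58, in cells under 10% mitochondrial UMIs. SPRY1, which damps receptor tyrosine kinase signals, went from 17.2 CPM to 10.3 CPM.

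S100A8, a calcium-binding protein of myeloid and inflamed epithelial cells, was lower in the pools, at 48.1 CPM and 23.2 CPM, but this value came from a few cells. The 16 cells with the most S100A8 UMIs held 89.4% of its UMIs at 0 h, and the 13 such cells held 75.8% at 2 h. Without the 1% of cells in each pool with most of it, its log2 fold change was 0.09 instead of -1.02. Among thinned cells, the share with an S100A8 UMI was 7.85% at 0 h and 7.48% at 2 h.

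**Figure D2:**
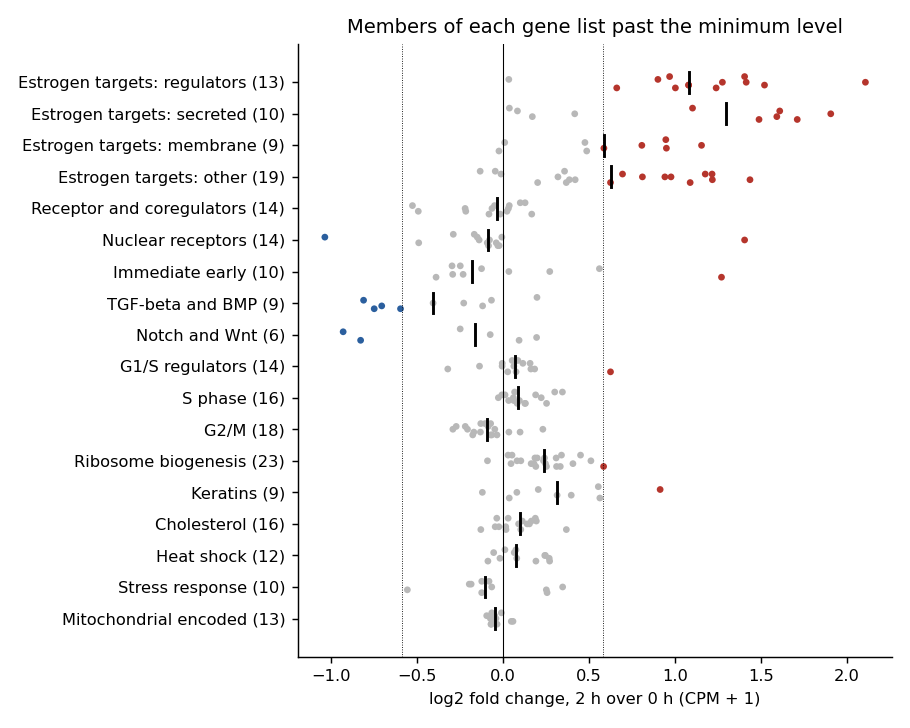
Each point is 1 gene of a list that passed the minimum level, by its log2 fold change between 2 h and 0 h (x axis, on CPM + 1); lists are rows with the number of genes measured, black bars are medians, dotted lines are 1.5-fold, and red and blue points are past it. The 4 estrogen-target lists have medians of 1.08, 1.30, 0.59 and 0.63, and TGF-beta and BMP genes a median of -0.41.

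Lists for other early programs held few genes past the rule. Of 10 immediate early genes measured, IER3 alone was higher, at 123 CPM (119.65 to 127) and 299 CPM (293 to 306), while JUN was at 128.7 CPM and 98.0 CPM (ratio 0.762, 0.725 to 0.800). FOS had 16 UMIs at 0 h and 21 at 2 h and EGR1 had 2 and 0, so neither was measured at this depth. No S phase gene of 16 and no G2/M gene of 18 passed the rule, with median log2 fold changes of 0.09 and -0.09. Of the ribosome biogenesis genes, 22 of 23 were above 0, against 3872 of all 7440 genes, with a median of 0.24, and NOP16 (17.0 CPM and 26.0 CPM) alone passed the rule. Of the 78 measured ribosomal protein genes, 14 were above 0, and their median was -0.03. Heat shock, cholesterol, stress response, interferon, apoptosis, metallothionein, KLF factor and mitochondrially encoded genes had no member past the rule in either direction, KLF3 (ratio 0.665, 0.586 to 0.753) and DDIT4 (ratio 0.674, 0.620 to 0.731) coming nearest.

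The largest increases in CPM over all genes tested were in 3 keratins, KRT19, KRT18 and KRT8, all within 1.5-fold. KRT19 was at 4733 CPM at 0 h and 6998 CPM at 2 h (ratio 1.48, 1.47 to 1.49), KRT18 at 3114 CPM and 4576 CPM (ratio 1.47, 1.46 to 1.48), and KRT8 at 2631 CPM and 3466 CPM (ratio 1.32, 1.31 to 1.33). The 12 keratin genes of the list summed to 11346 CPM and 15960 CPM. These simple epithelial keratins are also luminal markers, and the summed level of the luminal list was 12029 CPM at 0 h and 17099 CPM at 2 h. Of the keratins, KRT15 alone passed the rule, at 8.05 CPM and 16.1 CPM.

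The pooled differences were next divided into the share of cells with a UMI and the UMIs in those cells. For this, each cell was thinned to 14177 UMIs, which left 1363 cells at 0 h and 1096 at 2 h. Over the 91 higher genes, the median share of cells with a UMI was 16.7% at 0 h and 32.4% at 2 h, and the median share over all genes tested was 36.1% and 36.2%. The share changed by a larger factor than the UMIs per positive cell in 72 of the 91 higher genes and 26 of the 31 lower genes. The same count over all genes tested was not made. Over the 91 higher genes, the median ratio was 1.68 for the share and 1.17 for UMIs per positive cell. Over all genes tested, both medians were 1.00. One UMI is the smallest value a positive cell can have, so low genes have little room to differ in UMIs per positive cell. The droplet run held no other cell type that should lack these genes, so the share due to free RNA was not measured, and it was common to both pools.

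The 5 higher genes whose share of cells differed most were UGCG, SIAH2, OSGIN1, RARA and FMN1. UGCG had a UMI in 43.4% of cells (40.7 to 46.0) at 0 h and 77.1% (74.5 to 79.6) at 2 h, and SIAH2 in 29.9% (27.5 to 32.4) and 57.4% (54.4 to 60.3). MYB was found in 5.94% (4.75 to 7.33) and 24.5% (21.9 to 27.1), with 1.19 and 1.32 UMIs per positive cell. XBP1 differed in the other way: 93.2% and 99.2% of cells had a UMI, and positive cells held 5.46 UMIs at 0 h and 12.2 at 2 h. SLC9A3R1 (3.23 and 5.88 UMIs per positive cell), FKBP4 (4.59 and 7.32) and BTG1 (10.1 and 6.90) were of the same kind.

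**Figure D3:**
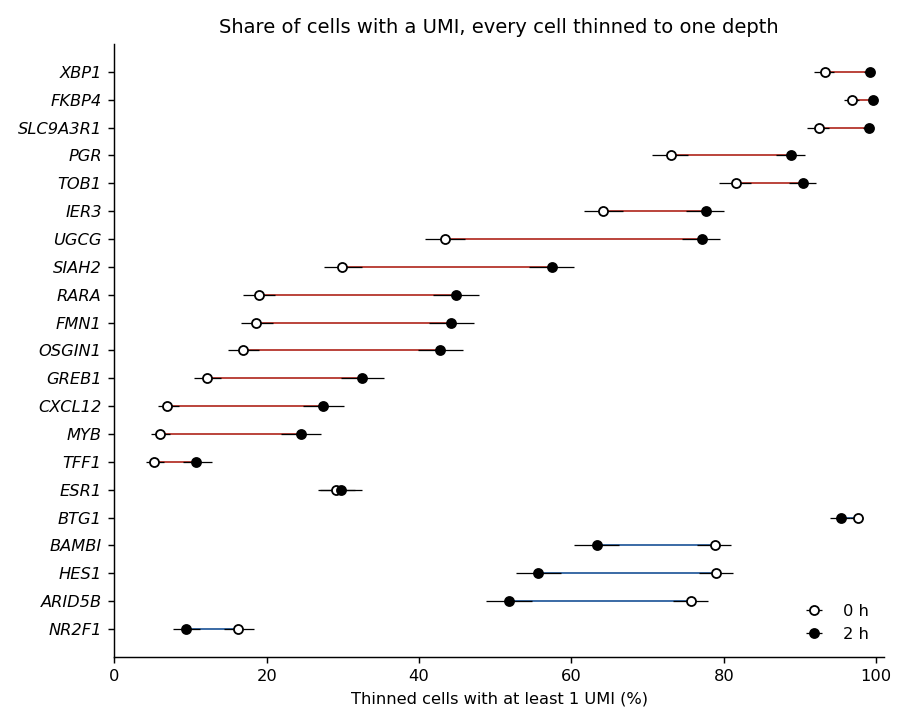
Share of thinned cells with at least 1 UMI (x axis, %) at 0 h (open circles, 1363 cells) and 2 h (filled circles, 1096 cells) for named genes, with Clopper-Pearson intervals; red lines join genes higher at 2 h, blue lines genes lower. Shares of UGCG differ most, at 43.4% and 77.1%, XBP1 is near 100% at both times, and the ESR1 circles overlap.

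TFF1 was uneven between cells. It was detected in 5.21% of cells (4.09 to 6.53) at 0 h and in 10.8% (8.99 to 12.8) at 2 h, with 1.32 and 2.50 UMIs per positive cell. The 13 cells with the most TFF1 UMIs, about 1% of the 2 h pool, held 45.6% of its UMIs there. The Fano factor, the variance of UMIs over cells divided by their mean, was 1.57 at 0 h and 7.33 at 2 h for TFF1, and 1.42 and 5.47 for AREG. Its median over the 91 higher genes was 1.14 at 0 h and 1.30 at 2 h and over all genes tested 1.09 at both times. A Fano factor grows with the level for any gene whose true level varies between cells, and the part of the level in these values was not tested.

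Most 2 h cells had more estrogen targets detected than most 0 h cells had. A thinned cell had UMIs of a median of 20 of the 51 estrogen-target genes at 0 h and of 26 at 2 h. Of the 2 h cells, 52.6% (49.5 to 55.5) exceeded 25 genes, the 95th percentile of the 0 h cells, and 4.77% (3.70 to 6.04) of the 0 h cells did. The distributions overlapped: 88.1% (86.1 to 90.0) of 2 h cells were above the 0 h median of 20, which leaves a part of the 2 h cells within the lower side of the 0 h range. Of the 0 h cells, 40.1% (37.4 to 42.7) were above 20 and 13.4% were at 20 itself. By summed UMIs of the same genes the medians were 78 and 110, and 33.1% (30.3 to 36.0) of 2 h cells exceeded the 0 h 95th percentile. Leaving out PGR, XBP1 and CCND1 gave 45.4% by genes detected, past a 0 h 95th percentile of 23 genes that 3.89% of 0 h cells exceeded. The 51 genes include 8 that were under 10 CPM in at least 1 of the pools, and over the other 43 the medians were 19 and 24 genes and 48.5% (45.5 to 51.5) of 2 h cells exceeded the 0 h 95th percentile.

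**Figure D4:**
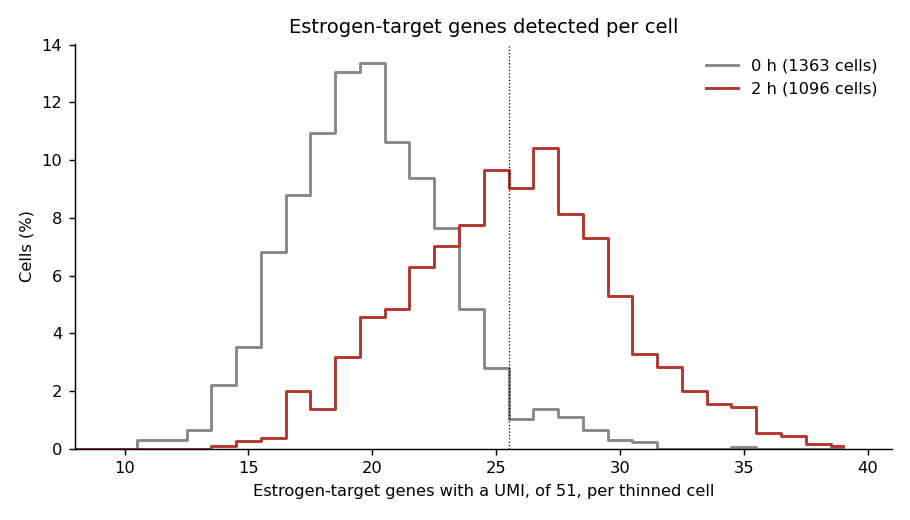
Percent of thinned cells (y axis) by how many of 51 estrogen-target genes had a UMI in the cell (x axis), for 1363 cells at 0 h (grey) and 1096 cells at 2 h (red); the dotted line follows the 0 h 95th percentile of 25 genes. The 2 h distribution has its median at 26 against 20 and crosses the line with 52.6% of its cells.

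Cells with and without a detected ESR1 transcript both differed between the time points. At 2 h against 0 h, the median log2 fold change of the 51 estrogen-target genes was 0.95 among cells with an ESR1 UMI (397 at 0 h and 326 at 2 h) and 0.85 among cells without (966 and 770). In thinned cells an ESR1 UMI was a matter of sampling as well as of level, so cells without one are not cells without the receptor. GREB1 differed by a ratio of 4.15 (3.07 to 5.70) in the first and 2.85 (2.31 to 3.53) in the second, and TFF1 by 2.71 (1.80 to 4.17) and 4.61 (3.45 to 6.26), and for both genes the intervals of the 2 kinds of cell overlapped. The intervals lay apart for 12 of the 71 named genes past the rule, and 11 of these 12 had log2 fold changes further from 0 in cells with an ESR1 UMI. Examples with 1 direction in both kinds of cell were FMN1 and HES1. In cells with and without, FMN1 had ratios of 4.68 (3.74 to 5.89) and 3.11 (2.66 to 3.66). HES1 had 0.431 (0.380 to 0.488) and 0.590 (0.546 to 0.637). The cause was not tested.

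The difference was present in dividing cells as well. Cells with a UMI of TOP2A or MKI67, both made in proliferating cells, were 27.1% (24.8 to 29.6) of the thinned 0 h cells and 25.5% (23.0 to 28.2) of the 2 h cells. The median log2 fold change of the estrogen targets was 0.89 among them and 0.93 among the other cells. All 91 higher genes were above 0 in both kinds of cell. Of the 31 lower genes, 31 were below 0 in the dividing cells and 30 in the others, the exception being S100A8. Both sets of genes were chosen from pools that hold these same cells, so their signs here are not independent evidence.

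Levels at 4 and 8 h, each again from 1 culture, showed several courses beside the 2 h value. OSGIN1 was at 13.4, 60.2, 17.9 and 27.8 CPM at 0, 2, 4 and 8 h, so that its 4 h pool was much nearer to 0 h than to 2 h. TIPARP, a target of the aryl hydrocarbon receptor, was at 14.02, 27.9, 17.9 and 19.6 CPM, and MYB at 4.49, 22.7, 14.5 and 18.2 CPM. CXCL12, by contrast, was at 6.09, 25.6, 40.3 and 59.9 CPM, OLFM1 at 12.1, 38.4, 52.4 and 91.3 CPM, and PGR at 129.5, 261, 281 and 355 CPM. AREG was at 23.4, 73.6, 76.7 and 79.8 CPM. Among the lower genes PLK2, a polo-like kinase, was at 90.5, 49.6, 70.1 and 82.1 CPM, and BAMBI at 186, 106, 105 and 98.2 CPM. These 3 times share the 0 h pool and are given as levels side by side.

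**Figure D5:**
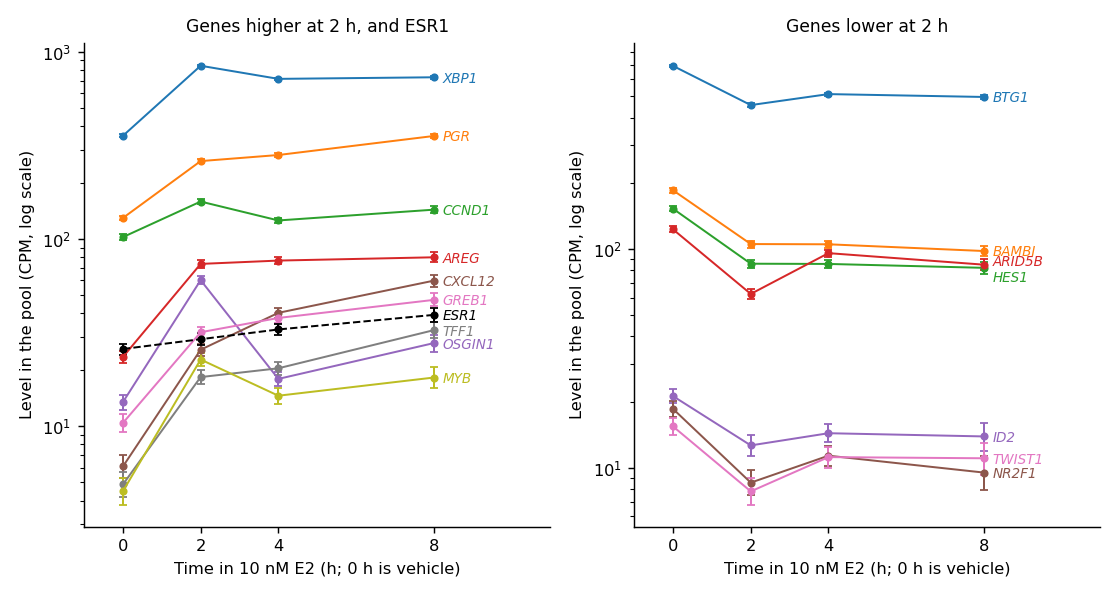
Level in each T-47D pool (y axis, CPM, log scale) by time in 10 nM E2 (x axis, h; 0 h is vehicle), 1 culture per time, with Poisson intervals; ESR1 is dashed. OSGIN1 is at 60.2 CPM at 2 h and 17.9 CPM at 4 h, CXCL12 goes on to 59.9 CPM at 8 h, and the lower genes have 2 h levels under their 0 h levels.

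Ishikawa cells gave another level for many of the same genes, shown here from 776 cells at 0 h and 1480 at 2 h within the limits set for that line. CXCL12 and DSCAM-AS1 had no UMI in Ishikawa, and TFF1 was at 0.131 CPM and 0.1004 CPM. PGR was at 0.915 CPM at 0 h and 2.28 CPM at 2 h there, and GREB1 at 1.18 CPM and 2.48 CPM. RNF223 was at 5.10 CPM and 23.6 CPM, and PLK2 at 199.4 CPM and 99.0 CPM. Of the 122 genes past the rule in T-47D, 78 had a mean of 10 CPM or more in both lines, and 2 of them were past 1.5-fold in the opposite direction in Ishikawa, among them IER3, at 24.0 CPM at 0 h and 7.43 CPM at 2 h.

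Genes close to the limit differed little across it. Just inside were SEPT9, TPBG and NOP16 on the higher side, at log2 fold changes of 0.60, 0.59 and 0.59, and just outside were HS6ST1, JAK1 and OPN3, at 0.58, 0.57 and 0.57. On the lower side BTG1, ID1 and HILPDA were inside, at -0.59, -0.60 and -0.61, and ENC1, ARHGEF37 and BCL9L outside, at -0.58, -0.58 and -0.57. Depth set how firmly a fold could be given: the interval of the ratio was narrow for XBP1 (2.31 to 2.42, from 11809 and 22351 UMIs) and wide for SUSD3 (2.08 to 3.54, from 85 and 184).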

How the data were processed

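The deposited T-47D and Ishikawa matrices held raw UMI counts per gene and droplet barcode. Per the labels and the submitters' processing notes, the authors aligned to hg38 and counted with Cell Ranger 3.1.0, and called time points from MULTI-seq tags with the demultiplex package. In the T-47D matrix, 18188 barcodes were listed; 1442 called to more than 1 tag and 12120 with no call were left out, and no further doublet caller was run. The study's limits (7500 to 40000 UMIs, 1500 to 6000 genes, under 20% mitochondrial UMIs) removed 0 of the cells used. The called cells already lay within them, so this was no further check. Their lowest values were 10358 UMIs and 3002 genes at 0 h, and 10090 UMIs and 3010 genes at 2 h. No counts model could be fitted, since each time point was 1 culture.

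UMIs were summed per time point and divided to CPM, and log2((CPM + 1) ratios) were computed for genes with a mean of 10 CPM or more over 4 time points; 1.5-fold counted as a change. Cells were thinned without replacement to the 10th percentile of UMIs, which left out 162 cells at 0 h and 111 at 2 h. Named genes were ESR1, GREB1, PGR and TFF1; the 20 highest and 20 lowest past the rule; list members past it and the extremes of each list; genes opposite in Ishikawa; the 5 most expressed past the rule per direction; the 5 with the largest difference in share of cells; and the 3 nearest the limit on each side. MYC, HEY2, FOS, EGR1, KRT8, KRT18, KRT19, EPCAM, GATA3, NCOA3, ID3, CA12, IL6ST, AGR2, TFF3 and CTSD were named after their values were seen. The comparison and the gene lists were chosen with earlier results of these data known. Scripts were tested on simulated data. Tools were Python 3.11.15, NumPy 2.4.6, SciPy 1.17.1, pandas 2.3.3, matplotlib 3.10.9, R 4.3.3 and edgeR 4.0.16, the last for TMM factors only. Results for 1 gene past the rule are not reported here.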

Additional observations from a re-analysis of the deposited data

Results flagged for a closer look

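IER3, an early response gene that modulates apoptosis, was flagged because its 2 h value had opposite directions in the lines: the log2 fold change was 1.27 in T-47D, from 123 CPM to 299 CPM, and -1.57 in Ishikawa, from 24.0 CPM to 7.43 CPM. The lines were compared over 6404 genes that passed the minimum in both, of which 2, IER3 included, met this condition. Each value compares 1 culture with 1 culture, and no test of the contrast between T-47D and Ishikawa was run.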

How the results depend on the processing

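Both counts of genes kept within 1.5 times of the reported 91 and 31 under TMM or median-of-ratios factors, another pseudocount, an upper limit on UMIs per cell, thinned cells, means over cells, cells without TOP2A or MKI67 UMIs, a minimum of 5 CPM, a minimum over 0 h and 2 h alone and, added after seeing the data, cells under 10% mitochondrial UMIs and 10 CPM in both pools. They moved with the threshold itself: with no minimum 204 genes were higher and 76 lower, with a minimum of 50 CPM 26 and 12, at 2-fold 39 and 2, and at the one fold limit tried under 1.5, 254 and 125. The median log2 fold change of the estrogen targets was 0.79 with a pseudocount of 5 CPM, against 0.94. Without PGR, XBP1 and CCND1, 45.4% of 2 h cells exceeded the 0 h 95th percentile, against 52.6%, and 48.5% did with the genes at 10 CPM in both pools, both chosen after seeing the data. The direction of S100A8 reversed, to a log2 fold change of 1.26 with an upper limit on UMIs per cell, 1.71 in cells without TOP2A or MKI67 UMIs and 0.093 without the 1% of cells with most of it. CCND1 was within 1.5-fold (0.55) in cells without TOP2A or MKI67 UMIs, and RNF43 (-0.58) in cells under 10% mitochondrial UMIs; the cause was not tested. In all, 14 of the 71 named genes past the rule came within 1.5-fold under some alternative: besides these 3, SLC22A5, SLC2A1, SEPT9, TPBG, NOP16, ID1, ID2, AMIGO2, SPRY1 and ZNF503 with a pseudocount of 5 CPM, and BTG1 in thinned cells and in cells without TOP2A or MKI67 UMIs. SLC2A1, SEPT9, TPBG, NOP16 and ID1 did so under others too. No paired analysis was possible because each time point was 1 culture and no test was run.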
